A study of Mus musculus with 2 samples.

Results

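The 9 genes described here encode transcription factors of the myeloid lineages: Spi1, Cebpa, Cebpb, Cebpd, Cebpe, Gfi1, Irf8, Runx1 and Fli1. They were named as a list, and each was matched by its symbol, which found all 9 among the 31053 genes of the matrices. They were read in single mouse leukemia progenitors that the labels call I1DN, or LSCs in their titles, sorted as cKit positive and Cd11b negative. The sources used here do not spell out the alleles, strain, age or number of mice behind that name, nor whether cells of several mice were pooled. 1 library came from mice given vehicle and 1 from mice given AG-120 (ivosidenib, an inhibitor of mutant IDH1), each for 5 days. The stated purpose was to learn how much the response to the inhibitor varies between cells. With 1 library per treatment there is no test and no replicate check, so every difference below is between 2 libraries, and every interval is an exact 95% interval that covers counting error only.

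Blood cell fate depends on transcription factors that oppose or reinforce each other. PU.1, the product of Spi1, binds DNA as an ETS factor and drives myeloid and lymphoid genes, and in erythroid precursors it antagonizes GATA1. C/EBPα, from Cebpa, is required for granulocyte-monocyte progenitors to form, C/EBPε, from Cebpe, acts in terminal granulocyte maturation, and C/EBPβ and C/EBPδ are induced by cytokine and inflammatory signals. IRF8 favours monocyte and dendritic fates and GFI1 the granulocyte fate. RUNX1 and FLI1, an ETS factor, work in stem cells and megakaryocytes as well as in myeloid cells. KLF1, the erythroid Krüppel-like factor, is the factor against which the set was read in single cells.

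On GRCm38 with GENCODE release 21, Spi1 spans chr2:91082390-91115756, Cebpa chr7:35119293-35121928, Cebpb chr2:167688915-167690418, Cebpd chr16:15887286-15891031, Cebpe chr14:54710360-54712174, Gfi1 chr5:107716657-107726036, Irf8 chr8:120736358-120756694, Runx1 chr16:92601466-92826149 and Fli1 chr9:32422204-32542861. RefSeq promoters (GRCm38.p6) were matched for 5 of the 9 members. The 4 windows below each hold the 250 bases before a start site, 5′ to 3′ on the gene's strand, and were chosen because Cebpa, Irf8 and Runx1 differed between the libraries and Cebpb differed least. Capitals mark matches, on either strand, to the ETS core GGAA or to the PU.1-type element GAGGAA, which contains that core. The Cebpa window is chr7:35119043-35119292 (plus strand), the Cebpb window chr2:167688665-167688914 (plus), the Irf8 window chr8:120736108-120736357 (plus) and the Runx1 window chr16:92697330-92697579 (minus), the latter before an internal start site of the gene. The table holds a second window for Irf8, with 2 ETS cores, and for Runx1 one before the outer start, chr16:92826075-92826324, with 4 ETS cores and 0 PU.1-type elements; that Runx1 window overlaps an annotated exon of the gene and is not printed, and for Irf8 the first start was taken.
Cebpa: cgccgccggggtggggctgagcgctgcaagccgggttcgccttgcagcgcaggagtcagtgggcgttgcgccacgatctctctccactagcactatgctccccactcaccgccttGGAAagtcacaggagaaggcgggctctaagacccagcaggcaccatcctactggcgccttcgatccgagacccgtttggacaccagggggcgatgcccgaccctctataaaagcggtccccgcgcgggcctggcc
Cebpb: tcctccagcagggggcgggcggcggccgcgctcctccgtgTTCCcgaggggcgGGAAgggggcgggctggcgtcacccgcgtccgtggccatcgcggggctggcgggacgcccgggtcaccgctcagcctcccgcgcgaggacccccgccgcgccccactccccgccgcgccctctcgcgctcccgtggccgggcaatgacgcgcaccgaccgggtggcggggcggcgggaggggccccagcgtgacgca
Irf8: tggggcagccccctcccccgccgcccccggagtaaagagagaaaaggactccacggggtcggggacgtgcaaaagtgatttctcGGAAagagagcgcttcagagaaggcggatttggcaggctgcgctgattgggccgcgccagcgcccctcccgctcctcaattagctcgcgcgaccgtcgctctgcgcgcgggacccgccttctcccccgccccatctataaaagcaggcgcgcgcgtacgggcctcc
Runx1: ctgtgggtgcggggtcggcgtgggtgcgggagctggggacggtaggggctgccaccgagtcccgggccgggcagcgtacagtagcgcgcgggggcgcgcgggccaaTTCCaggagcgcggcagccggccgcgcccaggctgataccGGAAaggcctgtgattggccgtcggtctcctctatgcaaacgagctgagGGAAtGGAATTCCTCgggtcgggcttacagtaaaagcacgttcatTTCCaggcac
The ETS core occurred 1 time in the Cebpa and Irf8 windows, 2 times in the Cebpb window and 6 times in the Runx1 window. Of 32851 promoter windows of the same length, 93.4% held it, so its presence sets none of them apart. The PU.1-type element was matched in the Runx1 window, in reverse 46 bases before the start, and in 23.3% of all windows. The C/EBP element TTGCNNAA (9.56% of all windows), the RUNX element TGTGGT (14.0%), the GATA element AGATAA (9.99%) and the interferon response element, a repeated GAAA with any pair of bases between (2.98%), were not matched in these 4 windows. A window of Gfi1, the other matched member, is not printed and held 1 C/EBP match, 143 bases before its start. A match is a run of letters and not a bound site.

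The kept cells, those with at least 500 genes and at most 10% mitochondrial UMIs (unique molecular identifiers, one per counted transcript molecule), numbered 3914 in the vehicle and 3756 in the AG-120 library, with medians of 13156.5 and 25681.5 UMIs. For shares of cells, each cell was therefore thinned to 6500 UMIs, which left out 361 vehicle and 131 AG-120 cells. Kit, a gene of the sort, stood at 58.3 and 30.4 CPM (the usual unit of UMIs scaled to a common library total), and Itgam, which encodes Cd11b, at 5.51 and 0.937. The libraries held different cells: clusters named erythroid-like made up 35 vehicle and 3289 AG-120 cells, megakaryocyte-like 1033 and 39, granulocyte-monocyte progenitor-like (GMP-like) 277 and 264, and neutrophil-like 31 and 60, while 2538 and 104 cells stayed unnamed. Most unnamed vehicle cells lay in clusters led by genes of immature cells such as Sox4 and Cd34. The members were kept out of the clustering and are not among the markers that name classes. They could still take a place among the 10 leading genes of a cluster, by which a name was kept or dropped. Spi1 did so in cluster 12, which stayed unnamed. Klf1, Gata1 and Mpo are markers of the naming and were not kept out of the clustering. In library sums, fewer cells of a type and less RNA per cell cannot be told apart. The libraries shared 17 barcodes among kept cells, and no doublets were removed.

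Both ETS members were far lower in the AG-120 library. Spi1 had 11236 UMIs in the vehicle library, or 199.79 CPM, and 3684 in the AG-120 library, or 38.34 CPM, which was 5.21-fold lower (5.02 to 5.41). At equal depth 66.9% of thinned vehicle cells held a Spi1 UMI, against 18.0% in the AG-120 library. Fli1, the other ETS member, stood at 122.83 and 24.42 CPM and was 5.03-fold lower (4.80 to 5.27), with 53.4% and 16.4% of thinned cells holding it. The intervals of the 2 ratios overlap.

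The C/EBP family did not move as one. Cebpa stood at 33.27 CPM in the vehicle and 11.45 in the AG-120 library, 2.91-fold lower (2.70 to 3.13), and 18.5% and 7.14% of thinned cells held it. Cebpd stood at 35.79 and 12.46 CPM, 2.87-fold lower (2.67 to 3.09). Cebpe stood at 15.88 and 8.52 CPM, 1.86-fold lower (1.69 to 2.05). Cebpb differed from its relatives, at 36.88 CPM in the vehicle and 41.84 in the AG-120 library, a ratio of 1.13 (1.076 to 1.197). The thinned shares were 16.0% and 21.8%, and it came past 1.2-fold higher when ratios were centred on the median of all genes, when cells were thinned, and without the 5% of cells with most UMIs. The share of cells with a Cebpb UMI was higher in the AG-120 library, whereas for Cebpa, Cebpd and Cebpe it was lower.

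Irf8 and Gfi1 were scarce in both libraries. Irf8 had 428 vehicle and 114 AG-120 UMIs, at 7.61 and 1.19 CPM, 6.41-fold lower (5.21 to 7.96), but a few cells carried it, with up to 34 UMIs in 1 vehicle cell. With thinned cells its ratio was 0.313 in place of 0.156. Gfi1 had 50 and 52 UMIs, at 0.889 and 0.541 CPM, under the minimum of 500 UMIs set for a measured gene. Runx1 was broadly expressed, at 186.93 and 67.08 CPM, 2.79-fold lower (2.70 to 2.88), and was still seen in 34.6% of AG-120 cells against 64.4% of vehicle cells. Klf1 went the other way, at 16.22 and 195.7 CPM, a ratio of 12.1 (11.3 to 12.9).

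Over the set, 8 of 9 members were measured, 7 were lower by 1.2-fold or more and 0 higher. Of 9419 measured genes, 42.2% were lower by that fold and 28.8% higher. Past 2-fold lower were 6 members, against 15.2% of genes, and 0 past 2-fold higher, against 6.35%. The median log2 ratio of the measured members was -1.53, and that of all measured genes -0.12. With each cell given equal weight Cebpe came to a ratio of 0.975 and 6 members were lower. These ratios mix cells of different kinds. When the AG-120 classes were weighted by the share of UMIs each held in the vehicle library, 3 members were lower (Cebpd, Cebpe and Irf8) and 3 higher (Cebpa, Cebpb and Runx1), with Spi1 at a log2 ratio of -0.03 and Fli1 at -0.16. That weighting was chosen after the data were seen, and it rests on 39 megakaryocyte-like and 104 unnamed AG-120 cells. The unnamed cells are not alike: most AG-120 ones lay in cluster 15 (48 cells, led by the basophil genes Prss34, Ms4a2 and Mcpt8) and cluster 16 (38 cells, led by Gzmb), which held 1 and 0 vehicle cells.

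**Figure D1:**
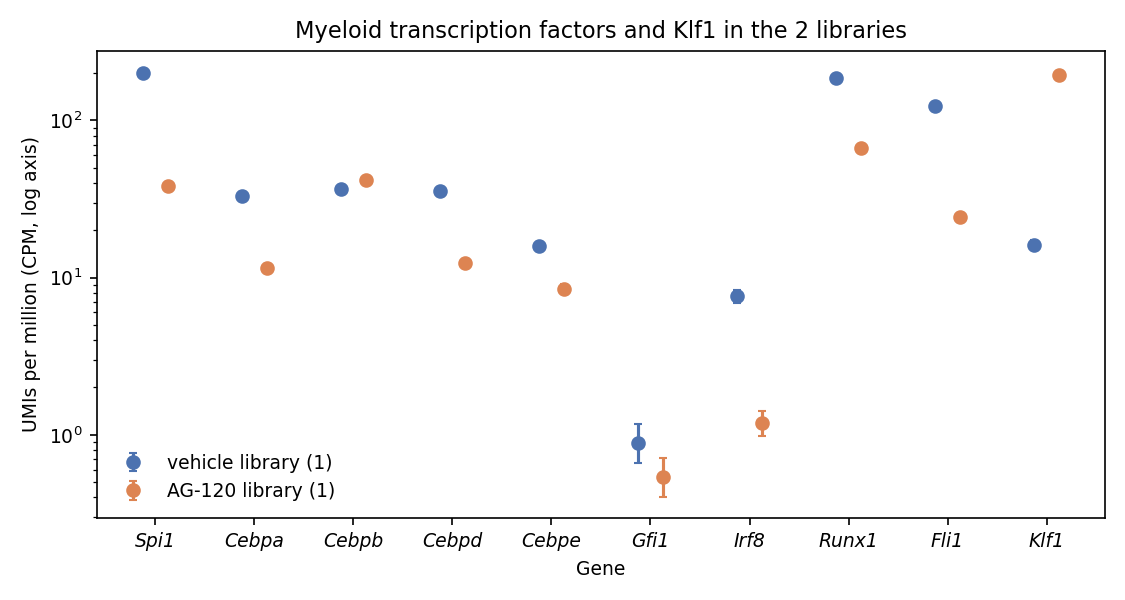
Level of each member and of Klf1 (x axis) in CPM on a log axis (y axis), 1 point per library with its exact 95% Poisson interval. The vehicle points lie above the AG-120 points except for Cebpb (36.88 and 41.84 CPM) and Klf1 (16.22 and 195.7 CPM).

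Genes that work beside these factors were read as lists, with counts at the same 1.2-fold. At that fold 42.2% of all measured genes were lower and 28.8% higher. Of 11 other measured ETS factors of blood cells, 10 were lower and 0 higher, with a median log2 ratio of -1.12. Elf1, which acts in lymphoid and myeloid cells, was 3.16-fold lower, Etv6, needed for stem cells in the marrow, 4.76-fold, Elf2 1.32-fold and Elk4 1.57-fold, and Gabpa, a ubiquitous ETS factor, had a ratio of 0.968. Of 21 other myeloid regulators 13 were lower and 4 higher (median -0.67). Among them the AP-1 genes Jun and Junb were 1.59-fold and 1.53-fold lower, Myc was 2.09-fold higher, and Myb, a factor of immature cells, and Cebpz had ratios of 1.07 and 0.865. Of 15 erythroid and megakaryocyte regulators 10 were higher and 5 lower (median 0.65). Lmo2, a bridging protein of GATA complexes, was 1.97-fold higher and Tcf3, an E protein, 1.57-fold higher, while the corepressor Cbfa2t3, the megakaryocyte factor Nfe2 and Lyl1, a relative of TAL1, were 1.70-fold, 1.87-fold and 2.37-fold lower.

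Myeloid genes that act downstream, several of them known targets of PU.1 or C/EBP factors, were mostly lower as well in sums over all kept cells. The counts below stand beside 42.2% of all measured genes lower and 28.8% higher. Of 8 measured myeloid cytokine receptors 7 were lower and 1 higher (median -1.63). Csf3r, the receptor for G-CSF, was 16.6-fold lower (14.7 to 18.8), Il3ra 3.40-fold, Kit 1.92-fold and Csf2ra 1.74-fold lower, and Ifngr1, for interferon gamma, was 2.85-fold higher. Of 6 genes of the phagocyte oxidase 5 were lower (median -2.03), with Rac2 3.62-fold, Ncf4 5.10-fold and Ncf1 6.15-fold lower and Cyba at a ratio of 1.10. Among primary granule genes 10 of 11 were lower (median -1.29), including Mpo 3.06-fold, Ms4a3 6.44-fold, Plac8 3.73-fold, Srgn 2.21-fold and Calr, a chaperone of MPO, 1.204-fold. All 8 measured secondary granule genes were lower (median -1.91): Lyz2 was 7.59-fold, S100a8 4.68-fold, Ngp 3.69-fold, S100a9 2.98-fold and Lcn2 1.66-fold lower. Of 11 Fc receptor and signalling genes 9 were lower (median -2.08), with the adaptor Tyrobp 13.1-fold, Coro1a 8.20-fold, Laptm5 5.37-fold and Fcer1g 4.55-fold lower, and Spn at a ratio of 0.888. The neutrophil marker list summed to 1918 CPM in the vehicle and 527 in the AG-120 library. It shares most of its genes, among them S100a8, S100a9, Ngp and Lcn2, with the secondary granule list and is not a separate observation. Its sum was 229430.5 CPM within the 31 vehicle and 43250.5 CPM within the 60 AG-120 neutrophil-like cells, and far lower in every other class. In GMP-like cells it was 529 CPM in the vehicle and 1005 CPM in the AG-120 library, and in unnamed cells 87.9 and 128 CPM. In megakaryocyte-like cells it was 95.3 and 45.7 CPM, and in erythroid-like cells 13.1 and 3.67 CPM. Outside neutrophil-like cells the sum was thus higher in the AG-120 library in some classes and lower in others. The part of the few neutrophil-like cells in the granule counts was not tested.

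Inside each library the members followed the classes. In the AG-120 library Spi1 stood at 16.2 CPM in erythroid-like cells (15.4 to 17.1), 76.2 in megakaryocyte-like (55.5 to 102), 242 in unnamed (212 to 274), 262 in GMP-like (249 to 275) and 436 in neutrophil-like cells (397 to 479). In the vehicle library the same order gave 12.2 (6.66 to 20.4), 101 (95.8 to 106), 230 (225 to 236), 312 (297 to 327) and 436 (376 to 502). The levels of neighbours in this order did not overlap within their intervals, apart from unnamed and GMP-like cells of the AG-120 library. Cebpa had another order. It stood at 5.22 CPM in the vehicle and 6.38 in the AG-120 library in erythroid-like cells, at 17.5 and 15.2 in megakaryocyte-like, 11.4 and 21.5 in neutrophil-like and 60.0 and 68.5 in GMP-like cells. The intervals of megakaryocyte-like and neutrophil-like cells overlap in both libraries, and those of GMP-like cells lie above both. Unnamed cells stood at 37.4 and 111 CPM of Cebpa, and here the AG-120 cells are of other clusters than the vehicle cells.

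Nearly all Cebpe UMIs lay in the granulocytic classes. It stood at 114 and 83.0 CPM in GMP-like and 514 and 320 CPM in neutrophil-like cells of the vehicle and AG-120 libraries, against 0.388 CPM in vehicle megakaryocyte-like and 0.0571 CPM (5 UMIs) in AG-120 erythroid-like cells. The GMP-like and neutrophil-like classes gave 69.8% and 25.2% of its vehicle UMIs, and 59.2% and 40.05% of its AG-120 UMIs. Gfi1 shared that pattern at low level, with 35 of 50 vehicle UMIs and 33 of 52 AG-120 UMIs in GMP-like cells and 0 UMIs in the 3289 AG-120 erythroid-like cells. Irf8 was highest in GMP-like cells, at 49.9 CPM in the vehicle and 11.3 in the AG-120 library, with 0 UMIs in the vehicle neutrophil-like cells.

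Cebpb, Cebpd, Runx1 and Fli1 reached into the other classes. Cebpb stood at 35.7 CPM in AG-120 erythroid-like cells (34.5 to 37.0), which gave 77.9% of its AG-120 UMIs, and at 21.5 CPM in vehicle megakaryocyte-like cells (19.2 to 23.9). Cebpd stood at 397 and 208 CPM in neutrophil-like cells and at 9.96 CPM in vehicle megakaryocyte-like cells. Runx1 stood at 175 CPM in vehicle megakaryocyte-like cells, against 197 CPM in GMP-like and 197 CPM in unnamed cells, and at 53.6 CPM in AG-120 erythroid-like cells. Fli1 was higher in vehicle megakaryocyte-like cells (131 CPM, 125 to 137) than in GMP-like cells (112 CPM, 103 to 121), the single member with that order. Among clusters with at least 20 cells in a library, cluster 15 of the AG-120 library had the highest level of Runx1, 671 CPM, and of Cebpa, 190 CPM, in shallow cells with a median of 7294 UMIs. Spi1 was highest in the 30 AG-120 cells of cluster 9, at 544 CPM, and was 1 of the 10 leading genes of cluster 12, which held 168 vehicle cells and 0 AG-120 cells.

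**Figure D2:**
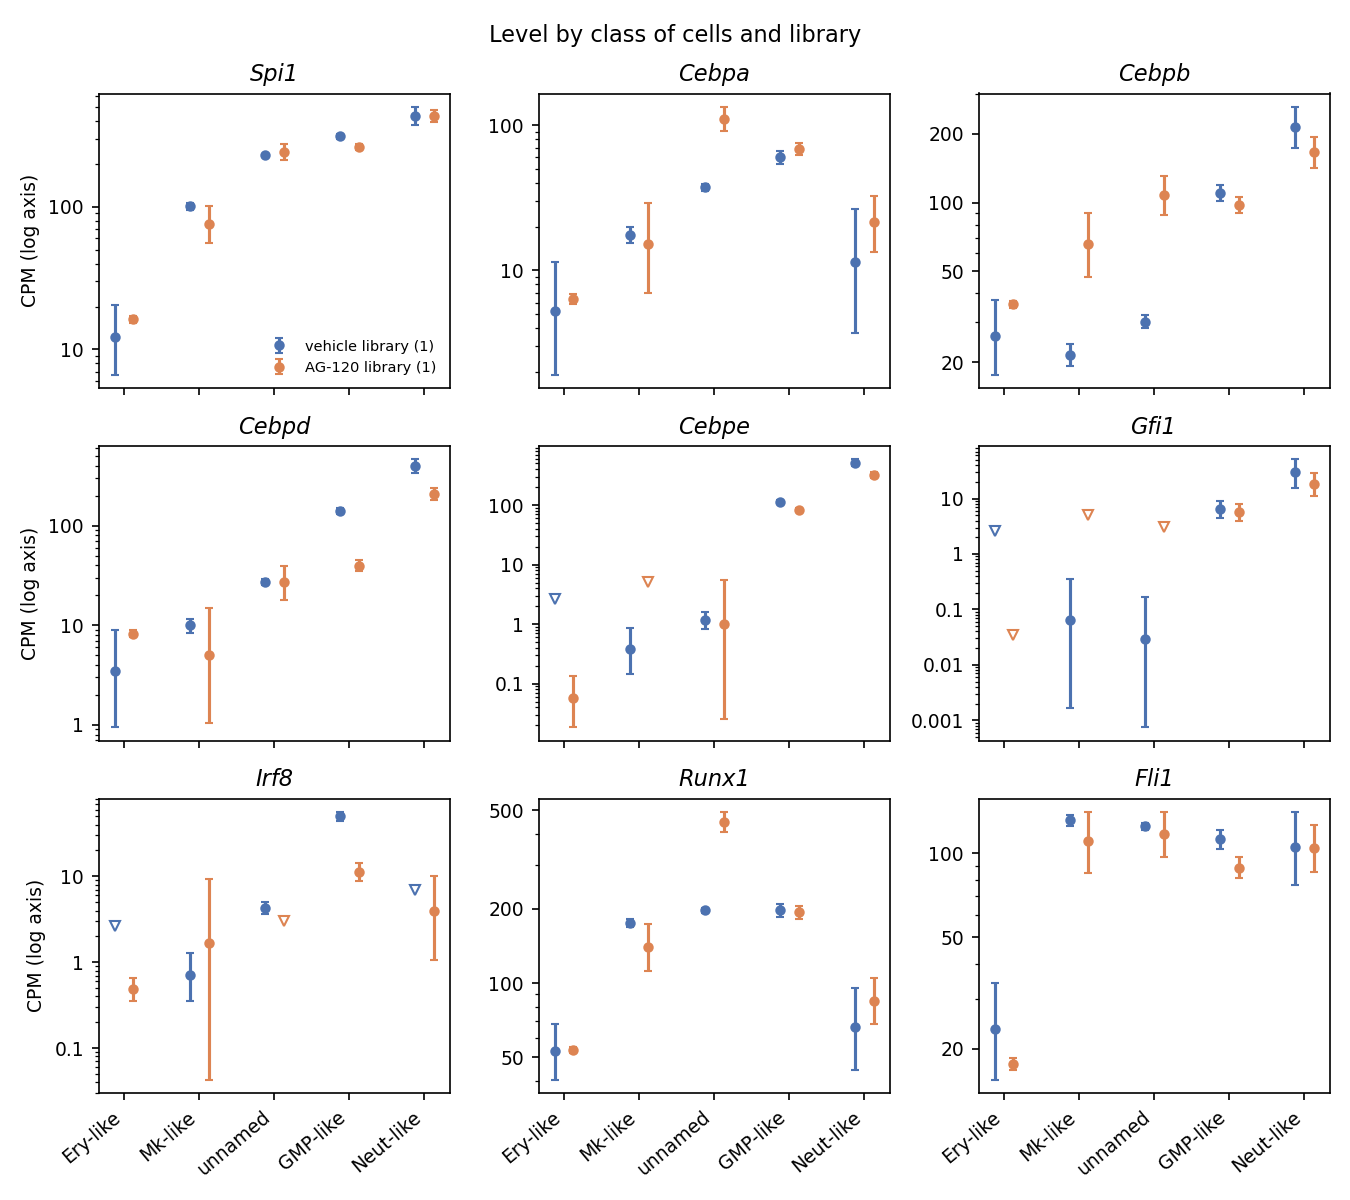
Level of each member in CPM on a log axis (y axis; its range differs between panels) by class of cells (x axis: erythroid-like, megakaryocyte-like, unnamed, GMP-like and neutrophil-like), 1 point per class and library with its exact 95% Poisson interval. Open triangles stand for classes with 0 UMIs and are drawn at the level that 3 UMIs would give. Spi1 runs from 16.2 to 436 CPM across AG-120 classes, and Cebpa is lower in neutrophil-like than in GMP-like cells of both libraries.

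Compared directly in the AG-120 library, 8 of 8 measured members were higher in GMP-like than in erythroid-like cells by 2-fold or more, a difference that 12.5% of genes showed, while 7.58% were lower. The ratio was 16.1 for Spi1 (15.01 to 17.4), 10.7 for Cebpa (9.42 to 12.2), 5.05 for Fli1, 4.82 for Cebpd, 3.61 for Runx1 and 2.74 for Cebpb. A gene was measured here at 100 UMIs over both classes. Cebpe passed that minimum only through GMP-like cells (485 against 5 UMIs), so its place in this count was fixed in advance. In the vehicle library 6 of 8 were higher in GMP-like than in megakaryocyte-like cells by 2-fold, against 4.27% of genes, and 0 lower, against 10.3%, the exceptions being Runx1 (1.13) and Fli1 (0.855). There Cebpe (623 against 6 UMIs) and Irf8 (272 against 11) passed the minimum only through GMP-like cells, with the same limit. Between neutrophil-like and GMP-like cells, 2 members were higher by 2-fold in each library (2.9% of genes in the AG-120 and 4.77% in the vehicle library), and 2 AG-120 and 3 vehicle members were lower (7.15% and 31.4%). These lower members passed the minimum only through GMP-like cells. Cebpe was 3.86-fold and Cebpd 5.23-fold higher in neutrophil-like cells of the AG-120 library, and 4.49-fold and 2.85-fold in those of the vehicle library. Cebpa was 3.19-fold lower there in the AG-120 library (2.08 to 5.15) and 5.25-fold lower in the vehicle library (2.23 to 16.3), the latter on 5 UMIs. Runx1 was 2.28-fold and 2.98-fold lower, and Irf8 had 0 UMIs in the vehicle neutrophil-like cells. The 10 neutrophil markers summed to 229430.5 CPM in vehicle and 43250.5 CPM in AG-120 neutrophil-like cells, a part of the total against which every other gene is scaled.

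The erythroid-like cells of the AG-120 library were not uniform. Ordered by their level of Klf1, clusters 2, 3, 10, 4, 6 and 13 stood at 170, 190, 207, 220, 247 and 317 CPM. Spi1 was lower at each step of that order, at 30.9, 24.3, 13.3, 10.7, 5.53 and 0.276 CPM. Fli1 did the same, at 31.4, 30.3, 15.03, 10.7, 3.92 and 0.827 CPM. The intervals of neighbours overlap between clusters 10 and 4 for Spi1 and between clusters 2 and 3 for Fli1. In cluster 13 a single Spi1 UMI was left among 110 cells.

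Cebpa followed the same order, at 12.4, 9.27, 6.23, 4.27, 1.82 and 0 CPM, with the interval of cluster 10 overlapping those of clusters 3 and 4. Runx1 ran from 65.7 CPM in cluster 2 to 35.0 in cluster 13. Cebpb had no such order, at 39.6, 30.1, 41.4, 35.7, 38.5 and 25.1 CPM, and neither did Cebpd, which was highest in cluster 13 at 16.3 CPM (12.4 to 20.97). Irf8 stood at 2.57 CPM in cluster 10 (1.55 to 4.02), whose leading genes include the interferon-induced Isg15, and at 0.161 to 0.568 CPM in clusters 2, 3, 4 and 6. Gata1, the erythroid factor that PU.1 antagonizes, stood between 194 and 237 CPM in the 6 clusters. With 6 clusters of 1 library this order is a description. Median depth differed along it, from 19533 UMIs in cluster 2 to 34233 in cluster 6 and 34016 in cluster 13, and its part in the order was not tested.

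**Figure D3:**
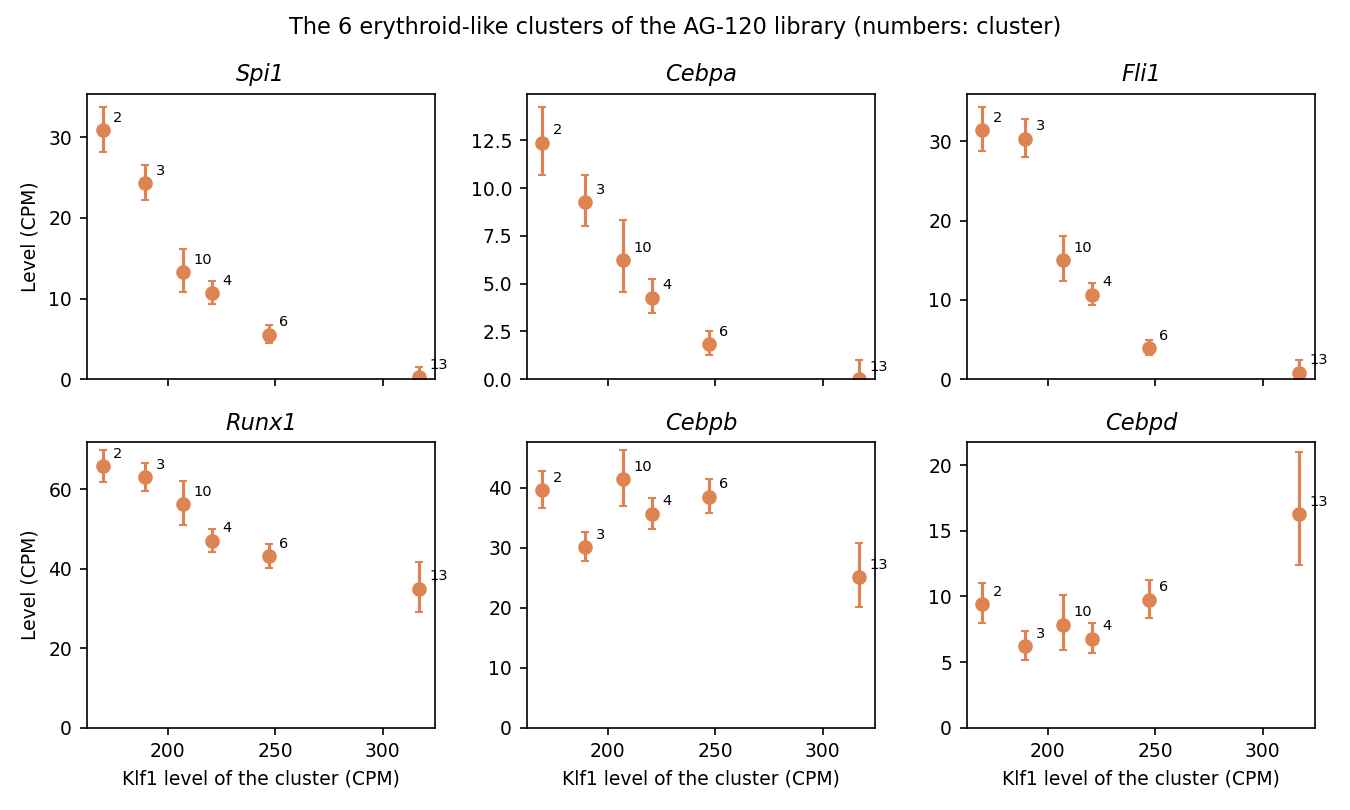
Level of 6 members in CPM (y axis, from 0) against the level of Klf1 in CPM (x axis) in the 6 erythroid-like clusters of the AG-120 library, with exact 95% Poisson intervals and cluster numbers beside the points. Spi1, Cebpa and Fli1 run down to 0.276, 0 and 0.827 CPM in cluster 13, while Cebpb stays between 25.1 and 41.4 CPM.

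Single cells were then ordered by their own Klf1 UMIs. Among thinned AG-120 erythroid-like cells with 0, 1, 2 and 3 to 5 Klf1 UMIs, Spi1 was seen in 13.6%, 10.6%, 10.5% and 10.2%. Cebpa was seen in 5.42%, 4.52%, 3.76% and 2.66%. Runx1 was seen in 32.0%, 30.6%, 32.0% and 27.9%, and Cebpb in 19.4%, 20.3%, 20.1% and 18.8%. The intervals of neighbouring bins overlap for each of these 4 members.

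Some cells held UMIs of Spi1 or Cebpa together with Klf1. A Spi1 and a Klf1 UMI were found together in 65 of 3553 thinned vehicle cells (1.83%, 1.41 to 2.33) and in 251 of 3625 thinned AG-120 cells (6.92%, 6.12 to 7.80). Cebpa and Klf1 were found together in 22 vehicle cells (0.619%) and 102 AG-120 cells (2.81%). Either factor met Klf1 in 74 vehicle cells (2.08%) and 330 AG-120 cells (9.10%), and all 3 genes in 13 and 23 cells. At least 2 UMIs each of Spi1 and Klf1 were found in 5 vehicle and 12 AG-120 cells, so most joint cells rest on single UMIs. These shares grow with depth: without thinning Spi1 and Klf1 met in 4.65% of vehicle and 27.4% of AG-120 cells.

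A smaller share of cells with Klf1 held Spi1. In the vehicle library it was seen in 65 of 201 Klf1-positive cells (32.3%, 25.9 to 39.3) and in 69.0% of Klf1-negative cells (67.4 to 70.6). In the AG-120 library the shares were 10.9% of 2304 cells (9.65 to 12.2) and 30.5% (28.0 to 33.1). For Cebpa they were 10.9% and 18.9% in the vehicle library and 4.43% and 11.9% in the AG-120 library. Most of this contrast lay between classes. Within AG-120 erythroid-like cells Spi1 was seen in 10.4% of Klf1-positive and 13.6% of Klf1-negative cells, with intervals that overlap (9.21 to 11.8 and 11.5 to 15.9), and Cebpa in 3.96% and 5.42%. Within vehicle megakaryocyte-like cells Spi1 was seen in 29.6% of 159 Klf1-positive cells (22.6 to 37.3) and 46.1% of Klf1-negative cells (42.6 to 49.6), whereas Cebpa was seen in 12.6% and 10.3%.

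**Figure D4:**
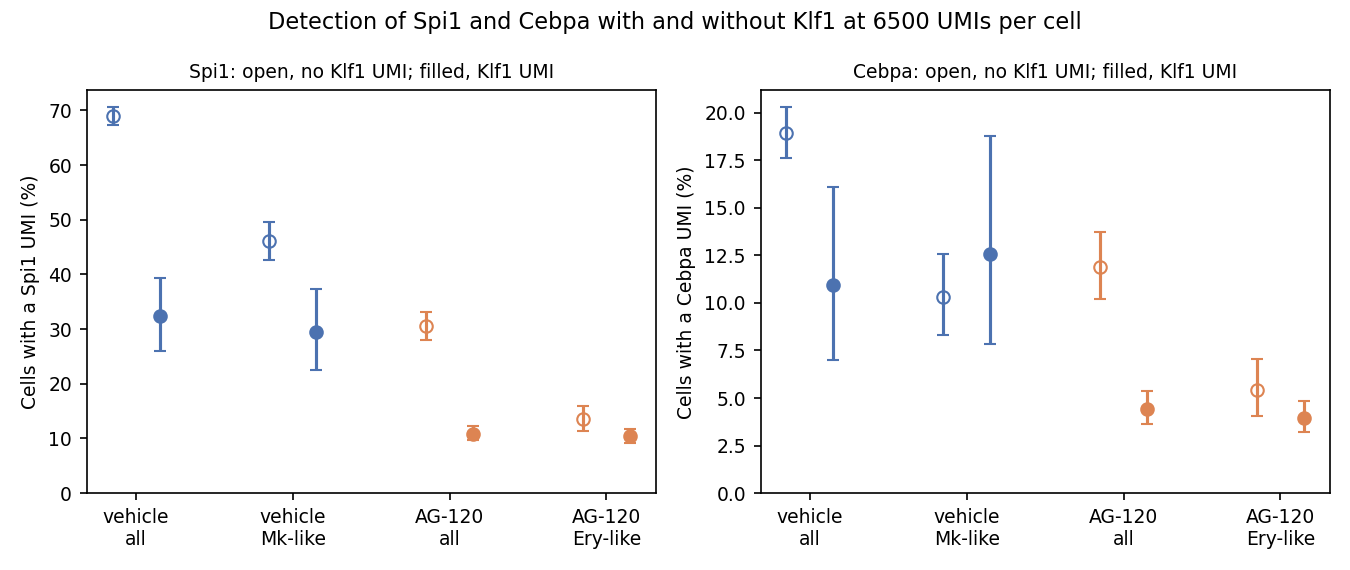
Share of thinned cells with a Spi1 UMI (left) or a Cebpa UMI (right), in percent, for cells without (open) and with (filled) a Klf1 UMI, over all cells of each library and within vehicle megakaryocyte-like and AG-120 erythroid-like cells, with exact 95% binomial intervals. Spi1 is at 69.0% and 32.3% in all vehicle cells without and with Klf1, and at 13.6% and 10.4% in AG-120 erythroid-like cells.

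The joint cells were of different kinds in the libraries, as were all cells with Klf1. Of thinned Klf1-positive cells, 159 of 201 in the vehicle library were megakaryocyte-like and 2270 of 2304 in the AG-120 library erythroid-like. In the vehicle library 72.3% of cells with Spi1 and Klf1 were megakaryocyte-like, 18.5% unnamed and 9.23% erythroid-like. In the AG-120 library 94.4% were erythroid-like, 37.5% of them all in cluster 2 and 27.9% in cluster 3, the 2 clusters with the least Klf1 of the 6. Cebpa with Klf1 gave 90.9% megakaryocyte-like cells in the vehicle and 88.2% erythroid-like cells in the AG-120 library. Joint cells were not the deepest by their median: before thinning, AG-120 cells with Spi1 and Klf1 had a median of 21759 UMIs, those with Klf1 alone 28139 and those with Spi1 alone 20328. Mpo, which was seen in 96.0% of thinned AG-120 GMP-like cells, was seen in 5 of the 237 erythroid-like cells with Spi1 and Klf1 (2.11%, 0.688 to 4.85). Among all 65 joint vehicle cells it was seen in 16 (24.6%).

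Free RNA can put UMIs into cells that do not make them. Klf1 was therefore read at the same depth in granulocytic classes, and Spi1 in the erythroid-like cluster with the least of it. Klf1 itself was not kept out of the clusters and names used here. Klf1 was seen in 0 of 22 vehicle and 2 of 48 AG-120 neutrophil-like cells (medians of 12724 and 17346 UMIs), 0 of 262 vehicle GMP-like cells and 4.76% of AG-120 GMP-like cells. Spi1 and Klf1 met in 7 AG-120 GMP-like cells. Spi1 was seen in 0 of 107 AG-120 cells of cluster 13 (up to 3.39%), which had a median of 34016 UMIs. That cluster was picked by its low Spi1 level, so its share of 0 cannot serve as a check on free RNA. Per 100 Mpo UMIs there were 4.82 Spi1 UMIs in cluster 11, which held 234 of the 264 AG-120 GMP-like cells, and 4.88 in the AG-120 cells of the neutrophil-like cluster 14. The erythroid-like clusters 2, 3, 10, 4 and 6 had 141, 1089, 754, 1095 and 286, and cluster 13 had 1 Spi1 and 2 Mpo UMIs. The part of free RNA in the joint cells was not tested.

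Within GMP-like cells the libraries could be compared with fewer differences in kind, yet different clusters held the class: cluster 9 held 275 of the vehicle and 30 of the AG-120 cells, cluster 11 held 2 and 234. The class also depends on clustering the libraries together: clustered apart, it held 1056 vehicle and 333 AG-120 cells. Of 8 measured members 4 were lower in the AG-120 library by 1.2-fold and 0 higher, against 20.3% and 30.1% of genes in that comparison. Irf8 was 4.42-fold lower (3.36 to 5.87), Cebpd 3.50-fold (3.02 to 4.08), Cebpe 1.38-fold (1.22 to 1.55) and Fli1 1.26-fold (1.12 to 1.42). Irf8 passed the minimum of 100 UMIs only through its vehicle cells (272 against 66 UMIs). Spi1 had a ratio of 0.841 (0.784 to 0.901), Cebpb 0.885 (0.788 to 0.994), Runx1 0.981 (0.902 to 1.07) and Cebpa 1.14 (0.984 to 1.33). The 5.21-fold difference of Spi1 between the whole libraries was thus 1.19-fold in these cells.

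Cluster 9 taken alone gave other directions. The ratio of AG-120 to vehicle there was 3.93 for Cebpe (3.31 to 4.64), 3.17 for Cebpb (2.62 to 3.81), 2.00 for Irf8 (1.40 to 2.78), 1.74 for Spi1 (1.503 to 2.00), 0.288 for Cebpa (0.115 to 0.600) and 0.667 for Runx1 (0.498 to 0.877). So 4 members were higher and 2 lower against 27.4% and 42% of genes. Its 30 AG-120 cells differed from its vehicle cells in lineage genes: Prg2, an eosinophil granule gene, stood at 24791 against 214 CPM, the list of basophil, eosinophil and mast cell markers at 27961 against 567 CPM with 9 against 4 of 10 markers at 20 CPM or more, and Cd74, of MHC class II loading, at 5058 against 311 CPM. Their part in the ratios was not tested. Cebpe and Irf8 were thus lower in the AG-120 cells of the whole class and higher in those of cluster 9.

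**Figure D5:**
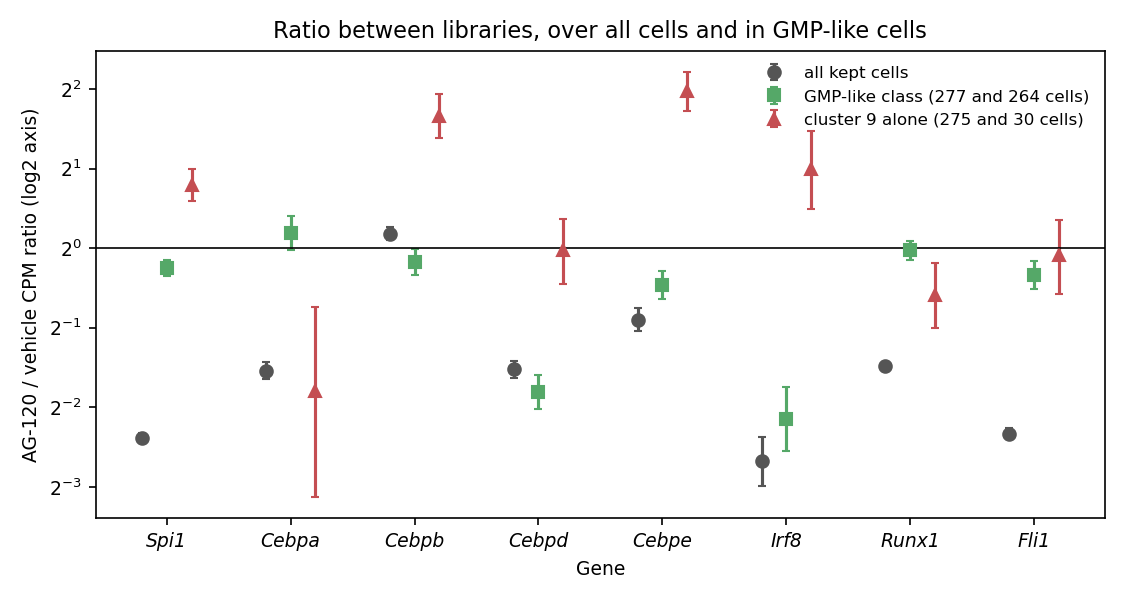
Ratio of AG-120 to vehicle CPM (y axis, log2 axis, line at 1) for the 8 measured members (x axis), over all kept cells, in the GMP-like class and in cluster 9 alone, with exact 95% intervals of the ratio. Spi1 is at 0.192, 0.841 and 1.74, and Cebpe at 0.537, 0.727 and 3.93.

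Other classes held too few cells of 1 library for narrow intervals. Among neutrophil-like cells (31 and 60) 3 of 6 measured members were lower and 1 higher, against 14.1% and 63.6% of genes, with Cebpd 1.91-fold (1.55 to 2.35) and Cebpe 1.60-fold lower (1.35 to 1.91) and Spi1 at a ratio of 1.00 (0.843 to 1.19). The intervals of Cebpb, the other lower member (0.598 to 1.006), and of Runx1, the higher (0.834 to 2.03), included 1. Among megakaryocyte-like cells (1033 and 39) 3 of 6 were lower and 1 higher, against 38.3% and 24.5% of genes, and the ratio of Cebpb was 3.07 (2.15 to 4.29). Of the lower members, the intervals of Spi1 (0.549 to 1.02) and Cebpd (0.104 to 1.52) included 1, and that of Runx1 reached 0.999. Among erythroid-like cells (35 and 3289) 4 of 6 were higher and 1 lower, against 26.1% and 23.5% of genes. There the interval of every measured member included 1, and Spi1 stood at 12.2 and 16.2 CPM.

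Members were also read against each other. A thinned vehicle cell held UMIs of a mean of 2.39 members and an AG-120 cell of 1.08, and 4.59% and 37.7% of cells held none. Spi1 and Cebpa were found together in 13.7% of vehicle and 3.37% of AG-120 cells, and in 27.5% and 27.8% of GMP-like cells. Within AG-120 erythroid-like cells, those with Spi1 more often held Fli1 (20.4% against 11.4%), Runx1 (38.7% against 29.8%) and Cebpa (7.90% against 3.95%). Across the 15 clusters with at least 50 cells, the measured genes most like Spi1 by Pearson's r of log2(CPM + 10) were Napsa (0.989), Txndc12 (0.989), Actr3 (0.988), Tm6sf1 (0.987) and Myl12b (0.986). Those most like Cebpa were Itm2c (0.969), Homez (0.962), Mgat5 (0.961), Smpd2 (0.961) and Nuak2 (0.959). Among the members Fli1 (0.929), Cebpa (0.900) and Runx1 (0.848) were close to Spi1, Cebpb (0.392) was not, and Klf1 ran opposite (-0.968). The clusters come from 2 libraries that differ in depth and composition, so these are descriptions.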

How the data were processed

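Single-cell RNA was counted in 2 libraries of sorted mouse I1DN progenitors, 1 per treatment. Per the labels' protocols, cells were captured on a 10x Genomics instrument with a 5′ kit, although the design text names 3′ chemistry. The submitters' processing notes list Cell Ranger 3.1.0, Seurat 4.0.4 and mm10 (GRCm38), without their roles, and the matrix header gives software 3.0.2. What the authors deposited are whole-number UMI counts, not normalized, for each gene in each barcode. Whether counting used strand is not given in the sources used here, so overlapping opposite-strand genes (Gm45091 at Cebpa, Tmem189 at Cebpb, Spidr at Cebpd) may share reads.

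From 56821757 vehicle and 96919988 AG-120 UMIs, cells passing the filters were summed per library and scaled to CPM. Genes with 500 UMIs over both libraries were measured (100 within a class), and 1.2-fold was the descriptive threshold. Cells were clustered with scanpy 1.11.5 and leidenalg 0.10.2 (2000 variable genes per library without the members and without sex-linked, ribosomal protein, mitochondrial, histone and cell cycle genes, 30 components, 15 neighbours, resolution 1.0). A class needed at least 3 markers and 50% of its list at 20 CPM and at 20% of the highest cluster. At least 1 of its own markers had to be among the 10 leading genes of the cluster, and no other class could have more there. Intervals are Poisson, Clopper-Pearson and conditional binomial. The ratio step was checked on simulated counts. No doublet caller was run. Members, lists and naming thresholds were chosen with earlier results of these data known. Named genes are the members, Klf1, the 5 measured genes with most UMIs of each list, and the 5 most like Spi1 and Cebpa; 1 gene under this rule is not reported here. Genes outside that rule (Itgam, Gata1, leading genes of clusters, and Prg2 and Cd74 of cluster 9) were chosen after their values were seen. Alternatives are below.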

Additional observations from a re-analysis of the deposited data

How the results depend on the processing

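All values rest on 1 library per treatment. No paired analysis was possible because each treatment has 1 library. Over 12 alternatives the count of lower members was 6 to 8, except 3 with AG-120 classes weighted by vehicle shares; the count of higher members was 1 (Cebpb) with median scaling, with thinned cells and without the 5% of cells with most UMIs, and 3 with the class weights. With those weights Cebpa (1.22 in log2) and Runx1 (0.81) reversed, and with each cell equal Gfi1 reversed (0.13). Class weights, the removal of neutrophil-like cells and that of shared barcodes were chosen after seeing the data. Joint shares follow depth. Spi1 with Klf1, in vehicle and AG-120 cells, was at 0.337% and 1.81% at 3000 UMIs, 2.90% and 11.6% at 10000, 4.65% and 27.4% without thinning, and 0.141% and 0.331% at 2 UMIs of each gene. Cebpa with Klf1 was at 0.155% and 0.862%, 1.05% and 4.68%, 1.79% and 12.1%, and 0.0563% and 0.0828% in the same order. Of Klf1-positive cells, Spi1 was in 11.3% and 4.62% at 3000 UMIs, 15.1% of AG-120 cells at 10000, 53.2% and 31.9% without thinning, and 7.69% and 0.986% at 2 UMIs. Cebpa was in 5.22% and 2.21%, 6.09%, 20.5% and 14.1%, and 3.08% and 0.247%. With libraries clustered apart, erythroid-like AG-120 cells held 14.0 CPM of Spi1 and 5.60 of Cebpa. Vehicle GMP-like cells then numbered 1056 in place of 277 and held 287 and 47.4 CPM. AG-120 GMP-like cells numbered 333 in place of 264 and held 278 CPM of Spi1. At resolution 0.5 AG-120 GMP-like cells were 30 cells with 544 CPM of Spi1 and 17.1 of Cebpa, and at 2.0 Spi1 stood at 246. The cause was not tested. At 6500 UMIs Gfi1 was seen in 13 vehicle and 11 AG-120 cells, too few to compare.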
